A study of Mus musculus with 2 samples.

Results

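The genes of the granins and of prohormone processing were followed through DNase-seq maps of the mouse adrenal gland. The set held 10 of the 21938 protein-coding genes of the annotation (GENCODE M21, build mm10, mitochondrial genes left out), and its members were Chga, Chgb, Scg2, Vgf, Scg3, Scg5, Pcsk1, Pcsk2, Cpe and Penk. They were chosen by name, and each locus was the gene body with 50 kb on each side. Both samples came from adrenal glands of female B6CASTF1/J mice, the first-generation cross of C57BL/6J and CAST/EiJ, at 10 days of age, with 3 females named in each label. They were biological replicates 1 and 2 of 1 group with no treatment named, so the data held no second condition, and 2 samples allow no test. In DNase-seq, the enzyme DNase I cuts accessible DNA, and a peak marks a stretch that was cut often. A footprint is a short stretch within open chromatin that was protected from cutting. The whole gland was sampled, so fewer cells of a type and less access per cell cannot be told apart.

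Granins are acidic proteins that help to form and fill dense-core secretory granules, and they are also cut into bioactive peptides. Inside the granule, the prohormone convertases cut hormone precursors at pairs of basic residues, and carboxypeptidase E then trims the basic residues left at the ends. In the adrenal medulla, chromaffin cells store granins and enkephalins together with catecholamines. REST is a repressor that binds a long sequence element near many neuronal and neuroendocrine genes, and CREB binds the cAMP response element (CRE). All binding statements here are background, since the data measured access and protection only.

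The sequences printed first are REST matches, which were found in several of the loci. A REST consensus match, with up to 3 mismatches on either strand, was found 6 times in the 10 loci, and 5 of the 6 lay inside peaks shared by both replicates. Reference sequence of mm10 is given 5′ to 3′, with the match in capitals, and each label names the place of the match. The Chgb stretch begins in coding sequence and runs into the intron, where its match lies.

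Chga, upstream, chr12:102550644-102550764, plus strand: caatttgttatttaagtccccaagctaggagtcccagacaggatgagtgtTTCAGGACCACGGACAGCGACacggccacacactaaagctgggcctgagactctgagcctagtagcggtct
Chga, intron, chr12:102555188-102555308, plus strand: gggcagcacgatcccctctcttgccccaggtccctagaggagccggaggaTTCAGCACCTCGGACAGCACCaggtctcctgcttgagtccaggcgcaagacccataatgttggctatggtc
Chgb, intron, chr2:132781744-132781864, plus strand: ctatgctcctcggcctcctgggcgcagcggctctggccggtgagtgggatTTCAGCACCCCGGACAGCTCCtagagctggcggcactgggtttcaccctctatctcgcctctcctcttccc
Vgf, at the start, chr5:137030270-137030298, minus strand: cggcTTCAGCACGCTGGACAGCGCCcgcg
Pcsk2, upstream, chr2:143536627-143536747, plus strand: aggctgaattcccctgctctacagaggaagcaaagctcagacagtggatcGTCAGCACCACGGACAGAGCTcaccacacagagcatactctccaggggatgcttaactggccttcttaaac

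The Chga matches were centred 4265 bp upstream and 279 bp downstream of the start of the gene. The Chgb match lay 526 bp downstream, the Vgf match 11 bp upstream and the Pcsk2 match 9469 bp upstream. The Vgf match lies in an untranslated exon of a longer transcript, so only 4 bases are shown on each side. Mismatches to the consensus numbered 1 at the intronic Chga site, at Chgb and at Vgf, and 2 at the upstream Chga site and at Pcsk2. Over the 10 pairs of these 5 matches, 15 to 19 of 21 positions were identical.

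Each of the 5 matches was covered whole by 1 footprint in each replicate. At the upstream Chga site the footprint was 29 bp long in replicate 1 and 28 bp in replicate 2. At the intronic Chga site it was 35 bp and 30 bp, and at Chgb 33 bp and 31 bp. At Vgf it was 32 bp and 30 bp, and at Pcsk2 26 bp and 27 bp. The ends of the paired footprints thus differed by no more than 5 bp between the replicates. The remaining match lay 31507 bp inside Cpe, with 2 mismatches, and no peak of either list covered it in either replicate.

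**Figure D1:**
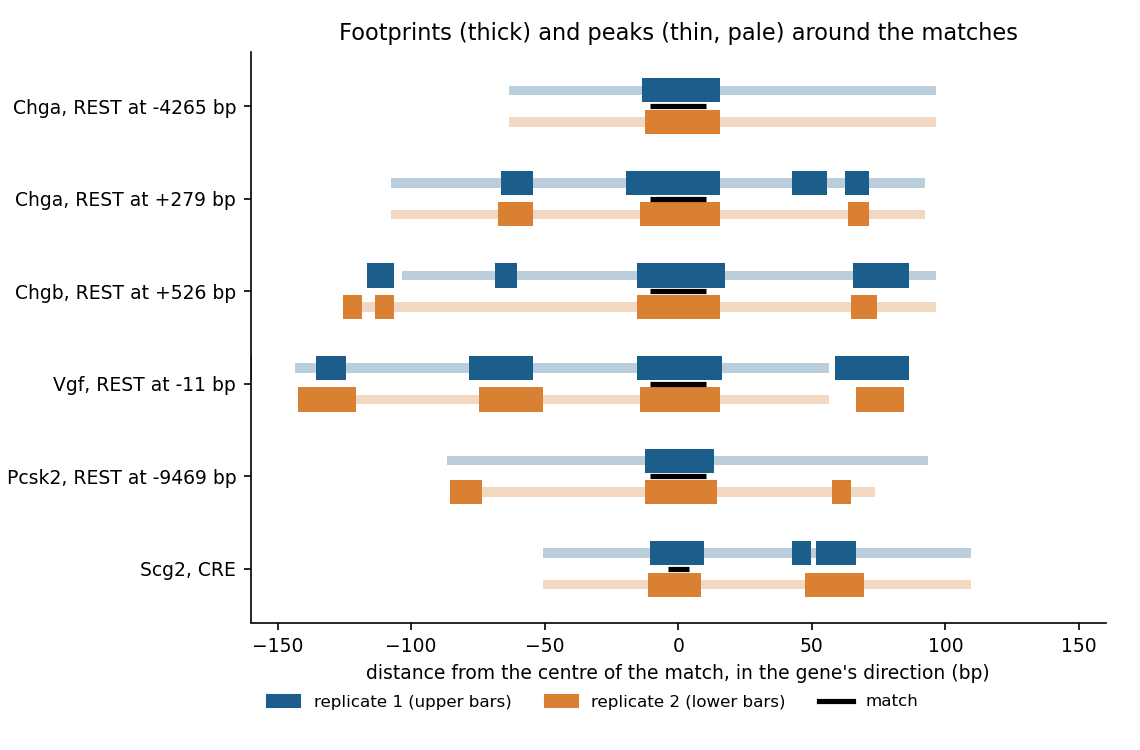
Footprints (thick bars) and peaks (thin pale bars) of replicate 1 (upper) and replicate 2 (lower) around 5 REST matches and the CRE match of Scg2, against the distance in bp from the centre of the match in the direction of the gene; the black line is the match. Every match drawn sits under a footprint in both replicates, 26 to 35 bp long in replicate 1 at the REST matches. Not drawn are the Vgf CRE, which footprints cover only in part, and the Cpe REST match, which lies in no peak.

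In all, 4 of the 10 loci held a REST match in a shared peak, against 4.38% of the loci of all protein-coding genes. Loci of neighbouring genes overlap, so 1 match can count for several genes in that share. Within 1 kb of the start, the match was present in 3 of the 10 (Chga, Chgb and Vgf), against 0.975% of all genes. Across the genome there were 3637 such matches, of which 548 (15.1%) lay in a shared peak and 12.4% had footprints of both replicates over their centre. The share in a shared peak was 57.2% of 173 matches with 1 mismatch, 34.3% of 600 with 2 and 7.99% of 2841 with 3. No member site was an exact match, and all 6 had 1 or 2 mismatches. Of the genome's 1-mismatch matches in shared peaks, 91.9% had footprints of both replicates over their centre. With 2 mismatches, this share was 78.2%.

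**Figure D2:**
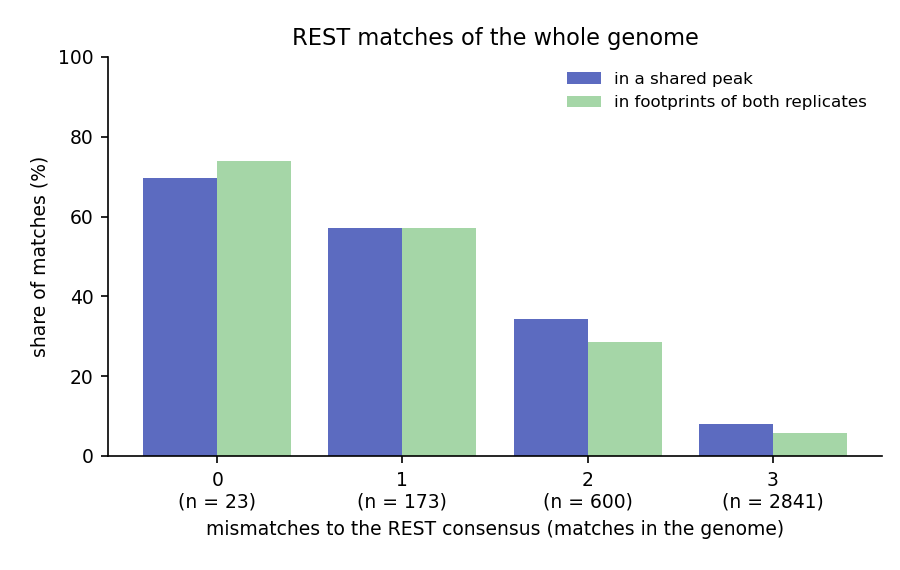
Share (%) of all REST matches of the genome that lie in a shared peak (left bar) or in footprints of both replicates (right bar), by the number of mismatches, with the number of matches below. The share in a shared peak is 69.6% with 0 mismatches and 7.99% with 3.

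The second sequence examined was the CRE. The full palindrome TGACGTCA stood within 1 kb of the start in 4 of the 10 genes (Chgb, Scg2, Vgf and Pcsk1), against 4.19% of all protein-coding genes. In Scg2 and Vgf it lay inside the shared promoter peak, which is why these are shown. That is 2 of the 11 shared promoter peaks of the set, against 2.74% of all shared promoter peaks.

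Scg2, 5′ untranslated region, chr1:79440077-79440104, minus strand: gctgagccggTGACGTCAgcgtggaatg
Vgf, upstream of the start, chr5:137030155-137030259, plus strand: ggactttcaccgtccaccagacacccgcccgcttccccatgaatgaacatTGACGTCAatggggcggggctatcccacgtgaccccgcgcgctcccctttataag

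The Scg2 palindrome lay 30 bp downstream of the more upstream of 2 annotated starts, and upstream of the other. It was covered whole by a 20 bp footprint in each replicate. The Vgf palindrome lay 87 bp upstream of the start. There, a footprint of 24 bp in each replicate overlapped it by 7 of its bases in replicate 1 and by 3 in replicate 2, and its remaining bases extended towards the gene. The shorter core TGACG occurred within 1 kb in all 10 members, against 62.4% of all genes. It lay inside 7 of the 11 shared promoter peaks of the set, against 31.4% of all shared promoter peaks. Such a core centred in footprints of both replicates was found in 2 of the 10 (Scg2 and Vgf), against 8.75% of all genes. Of the other letters searched on both strands within 1 kb of the start, the GC box GGGCGG was present in 9 of 10 members, against 68.2% of all genes. The E-box CAGCTG was present in 9, against 62.0%. The AP-1 site TGANTCA was present in 5, against 36.9%, the steroidogenic factor 1 site AAGGTCA in 3, against 28.7%, and the homeodomain site TAATTA in 3, against 32.1%. The GATA site AGATAA was present in 3 (Scg2, Scg3 and Scg5), against 57.1%. The general E-box CANNTG, which includes CAGCTG, was present in all 10 and in 99.9% of all genes. The core TGACG is part of the palindrome and is counted with it.

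Promoters were open in most of the set. Peaks of both replicates within 1 kb of an annotated start overlapped each other by at least 1 bp in 9 of the 10 genes, against 63.6% of all protein-coding genes. The exception was Pcsk1. CpG content was close to that of other genes: the observed over expected CpG ratio within 500 bp of the start had a median of 0.632 in the members, against 0.596 in all genes. Among the 7989 genes within the members' range of that ratio (0.466 to 0.796), 90.2% had a shared promoter peak. A count of 9 of 10 is thus near the share of genes of like CpG content.

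Although open, the promoters were mostly low. Heights are the authors' normalised signal, 1 value per peak. The median height of the highest shared promoter peak was 2.91 in replicate 1 and 1.78 in replicate 2 for the members, against 5.95 and 3.10 for all genes with such a peak and 5.68 and 2.92 for those of like CpG content. Only Vgf and Chgb stood above the medians of all genes.

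**Figure D3:**
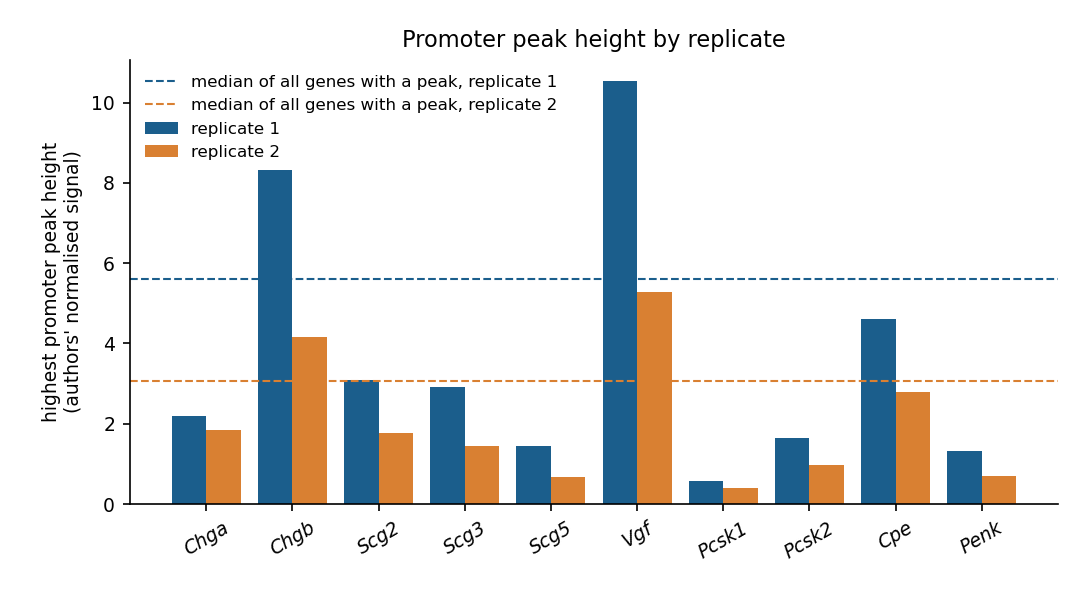
Height of the highest promoter peak (authors' normalised signal) of each gene in replicate 1 (left bar) and replicate 2 (right bar); dashed lines are the medians of all genes with a promoter peak in each replicate (5.62 and 3.07). Vgf and Chgb lie above both lines, and Pcsk1 is lowest in both replicates.

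Among the granins, Vgf encodes a precursor of several secreted peptides. Its promoter peak (chr5:137030141-137030340) was the highest of the set, with 10.5 in replicate 1 and 5.29 in replicate 2. These were the 83.6th and 88.5th percentiles of promoters with a peak. The peak held 3 footprints in each replicate, among them one over the REST match and one that covered the CRE in part.

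Chgb, which encodes chromogranin B, had a peak (chr2:132781681-132781900) of 8.31 in replicate 1 and 4.17 in replicate 2, at percentiles 70.6 and 72.1. This peak was centred 512 bp downstream of the only annotated start, mostly in the first intron, and it holds the REST match. No other peak of the stricter list (FDR 0.001) lay within 1 kb of the Chgb start in either replicate.

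Chga, which encodes chromogranin A, showed the same placement. Its shared peak (chr12:102555141-102555340) was centred 271 bp downstream of the start, also mainly in an intron and over a REST match, with heights of 2.20 and 1.83 in replicates 1 and 2. The start itself was met by a peak in replicate 1 only, 59 bp upstream and 1.09 high. At that place replicate 2 had bases listed at a false discovery rate (FDR) of 0.00176 at the lowest, which misses the 0.001 of the stricter list. In Chga and Chgb the peak present in both replicates was thus the one at the intronic REST match.

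Scg2, which encodes secretogranin II, had a peak over its start (chr1:79439981-79440140) of 3.10 in replicate 1 and 1.78 in replicate 2, at percentiles 30.3 and 26.3. In that list it was the only peak of either replicate within 1 kb of a Scg2 start and the one that holds the CRE.

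The gene products that sort or fold other granule proteins had low promoter peaks. Scg3 encodes secretogranin III, which binds chromogranin A and granule membranes, and its peak over the start (chr9:75683861-75684180) measured 2.91 in replicate 1 and 1.44 in replicate 2. Scg5 encodes 7B2, the chaperone of the convertase PC2, and its peak (chr2:113828981-113829195) measured 1.45 and 0.682. The Scg5 heights lay at the 15.5th and 5.34th percentiles.

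Of the processing enzymes, Cpe was the most open. The peak over the main start of Cpe, which encodes carboxypeptidase E (chr8:64692721-64693160), measured 4.61 in replicate 1 and 2.78 in replicate 2, at percentiles 42.6 and 44.0. Pcsk2, which encodes the convertase PC2, had a peak of 459 bp at its start (chr2:143545762-143546220) with 1.64 and 0.979, at percentiles 17.7 and 11.6. A start of the antisense gene Pcsk2os1 lay within 1 kb of it, and its height cannot be assigned to one of the pair.

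Pcsk1, which encodes the convertase PC1/3, was the least open. In the stricter list it had 1 peak per replicate, and they did not overlap: 0.562 high and centred 1038 bp upstream of the start in replicate 1, and 0.409 high and 756 bp downstream in replicate 2. These were the 3.22nd and 0.940th percentiles. In the longer list (FDR 0.05) 3 regions were shared, with 0.562 and 0.285 at 1063 bp upstream, 0.287 and 0.341 at 72 bp downstream, and 0.328 and 0.409 at 724 bp downstream. Neither list had a distal peak in the Pcsk1 locus in either replicate.

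Penk encodes proenkephalin, the main opioid precursor of chromaffin cells and a substrate of the enzymes above. Its promoter peak (chr4:4138741-4139000) measured 1.32 in replicate 1 and 0.688 in replicate 2, at percentiles 14.1 and 5.46. A start of the noncoding gene A830012C17Rik lay within 1 kb. A distal peak 1461 bp upstream of the Penk start (chr4:4140181-4140380) was higher, with 3.10 and 2.25. These heights lay at the 94.8th and 93.5th percentiles of all distal peaks of each replicate, shared or not. The upstream peak held 4 footprints in each replicate and a common protected stretch of 30 bp.

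Beyond the promoters, distal peaks (over 1 kb from every annotated start of any gene) were mostly seen in 1 replicate. The 10 loci held 46 in replicate 1 and 17 in replicate 2, and 15 were shared. Of the peaks of replicate 1, 32.6% were found in replicate 2, against 40.5% of all distal peaks of the genome. At least 1 shared distal peak was present in 6 of the 10 loci, against 73% of all loci. The summed count over the summed length gave 0.967 shared distal peaks per 100 kb in the 10 loci, against 1.54 over all loci. Because loci of neighbouring genes overlap, a peak near many genes counts several times in the 73% and the 1.54. The density over the genome as a whole was not computed, so the 10 loci cannot be called poor in distal peaks. Scg5, Vgf, Pcsk2 and Penk had 3 each, Chga had 2 and Scg3 had 1, while Chgb, Scg2, Pcsk1 and Cpe had 0. Of the 31 peaks of replicate 1 alone, 12 met bases listed at an FDR under 0.05 in replicate 2 and 19 did not. Their median height was 0.689, against 0.668 for such peaks of the whole genome.

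**Figure D4:**
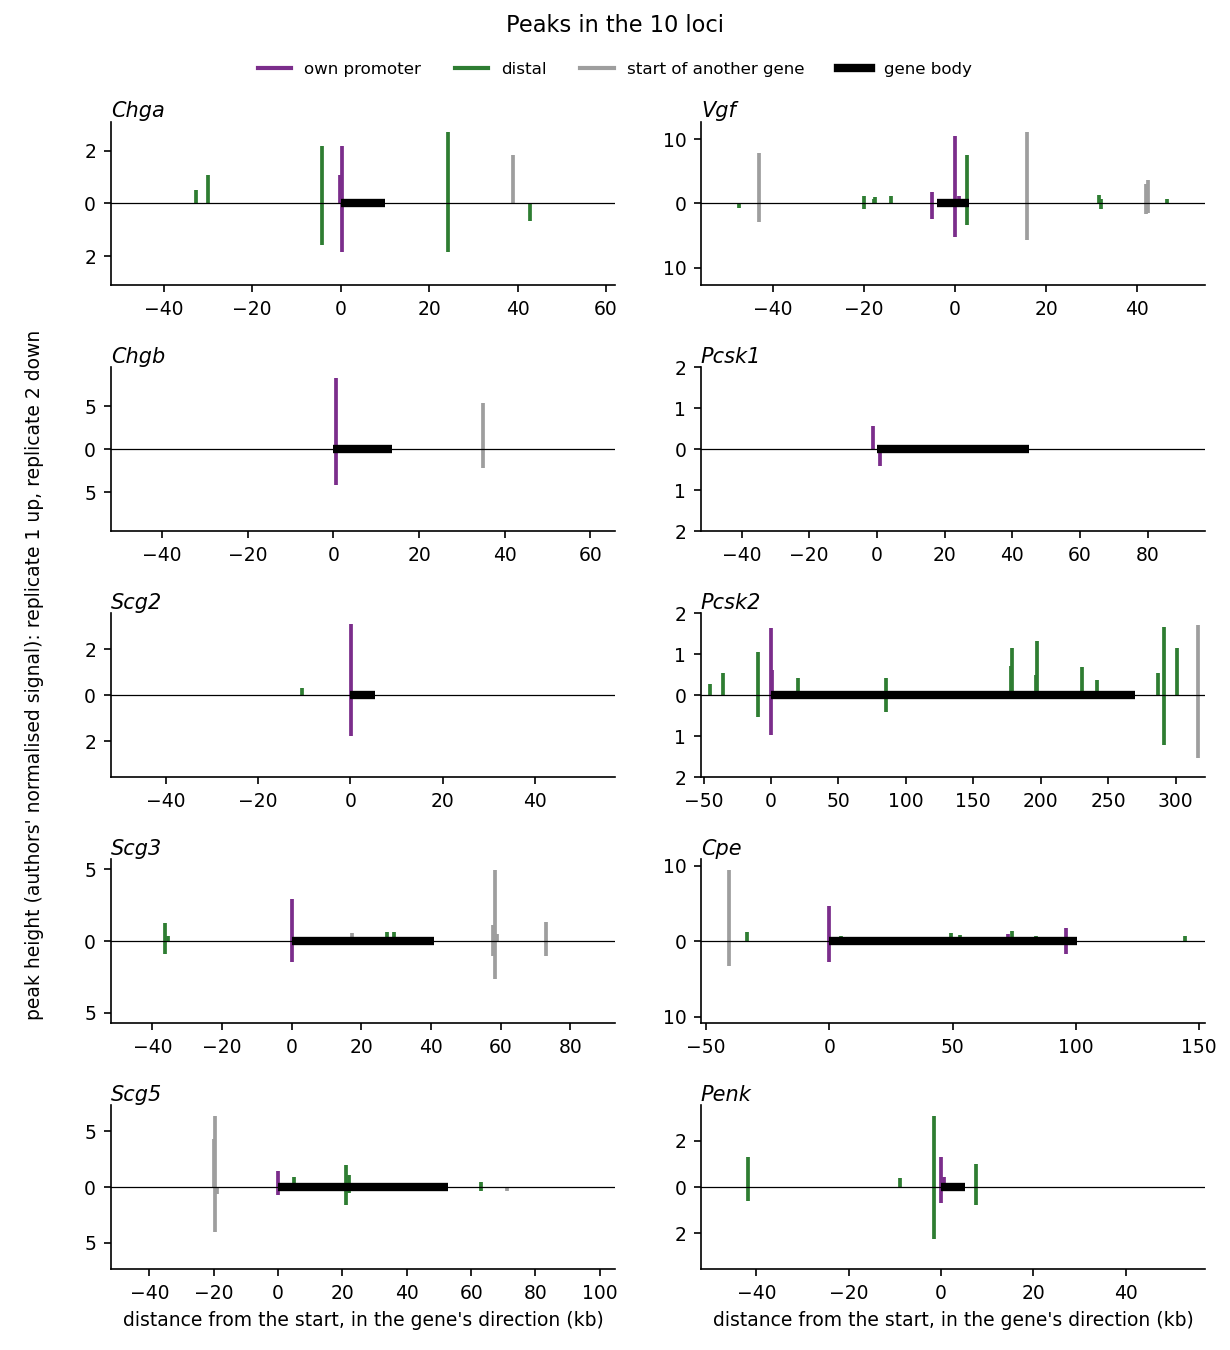
Peaks of the stricter list in the 10 loci: height (authors' normalised signal) in replicate 1 upwards and in replicate 2 downwards, against the distance in kb from the start in the direction of the gene. Colours mark the gene's own promoter, distal peaks and starts of other genes, and lines that extend one way only are peaks of 1 replicate, such as 11 distal peaks of replicate 1 at Pcsk2.

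The highest shared distal peak of the set lay in Vgf, 2595 bp downstream of the start, in the last part of the gene (chr5:137032781-137033000). It measured 7.57 in replicate 1 and 3.30 in replicate 2. These were the 99.6th and 98.1st percentiles of all distal peaks of each replicate, shared or not. All 220 bases of the peak were exonic, 56 of them coding. After the upstream Penk peak, the next highest by replicate 1 were in the Chga locus. The one 24271 bp downstream of the start measured 2.71 and 1.85, and the one over the upstream REST match measured 2.19 and 1.57. In an intron of Scg5, a peak 21271 bp downstream measured 1.97 and 1.63. At Pcsk2, the peak 291254 bp downstream of the start, beyond the gene's end, measured 1.67 and 1.21. Below these came a peak 41871 bp upstream of Penk with 1.31 and 0.626, one 36404 bp upstream of Scg3 with 1.28 and 0.874, one 20106 bp upstream of Vgf with 1.18 and 0.917, and one 22051 bp inside Scg5 with 1.07 and 0.514. The peak over the Pcsk2 REST match measured 1.06 and 0.539.

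The longest protected stretch common to both replicates in these distal peaks was the 39 bp of the Pcsk2 peak beyond the gene, shown in capitals.

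Pcsk2, beyond the gene's end, chr2:143837298-143837436, plus strand: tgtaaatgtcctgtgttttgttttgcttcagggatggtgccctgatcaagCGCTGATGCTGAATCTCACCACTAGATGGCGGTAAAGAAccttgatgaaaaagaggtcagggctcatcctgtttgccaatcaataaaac

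The core of the CTCF consensus, searched on both strands after the peaks had been seen, was found inside that footprint. CTCF is a protein that bounds chromatin loops. It was present in 4 of the 15 shared distal peaks (at Scg3, Scg5, Vgf and Pcsk2), against 21.4% of all shared distal peaks. A REST match was present in 2 of the 15, against 1.28%. An overlap of footprints of both replicates was present in 14 of the 15, against 85.7% of all shared distal peaks. At promoters, all 9 members with a shared peak had overlapping footprints in it, against 95.6% of all such genes, and the median number of footprints was 4 in replicate 1 and 3 in replicate 2, against 6 and 5.

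Heights were generally higher in replicate 1: the median log2 ratio over the 48299 shared peaks of the genome was 0.73, and ratios are given relative to that median. For the promoters of the set, the median centred log2 ratio of replicate 1 over replicate 2 was 0.21, against 0.19 for all genes with a shared promoter peak. It was below 0 in 2 of 9 members, against 32.4%. One of these was Cpe at -0.00366, and the other was Chga at -0.47. If each height step were 1 sequenced tag, counting error alone would give the Chga ratio a 95% interval of -0.70 to -0.24. The other members with a shared peak ran from 0.01 in Pcsk2 to 0.36 in Scg5. Chga thus had the lowest ratio of the 9.

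By centred ratio, a peak upstream of Vgf was the lowest of the shared own-promoter and distal peaks of the set. It lay 4975 bp upstream of the start used here and 972 bp from the more upstream Vgf start (chr5:137025221-137025420). It measured 1.78 in replicate 1 and 2.42 in replicate 2, a centred log2 ratio of -1.17. At Cpe, a peak inside the gene, 95824 bp from the main start and 464 bp from the start of a processed transcript, measured 1.69 in both replicates and had a ratio of -0.73. It held the CTCF core within footprints of both replicates.

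Shared distal peaks of the set had a median centred log2 ratio of -0.27, against -0.03 for all shared distal peaks, and 11 of 15 were below 0, against 52.4%. The ratio also moved with height over the whole genome, with a median of -0.41 in the lowest height decile and 0.40 in the highest. The 4 distal peaks with the CTCF core had a median of -0.36 and all were below 0, against a median of -0.21 and 70.8% below 0 for all 5698 shared distal peaks with it. The 2 with a REST match had a median of -0.00414, with 1 below 0. All 342 shared distal peaks of the genome with such a match had a median of -0.25, with 74.9% below 0. The genome's 162 shared promoter peaks with one had a median of -0.23, with 77.8% below 0. Of the 3 such promoter peaks in the set, that of Chga had -0.47, while those of Chgb and Vgf each had 0.26. The 9 distal peaks of the set with neither match had a median of -0.27, with 6 below 0. Centred within its own height decile, the distal median of the set was -0.22 and the promoter median 0.03. In the longer list the distal median was -0.08. The part of CTCF or REST content in the members' ratios was not tested.

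**Figure D5:**
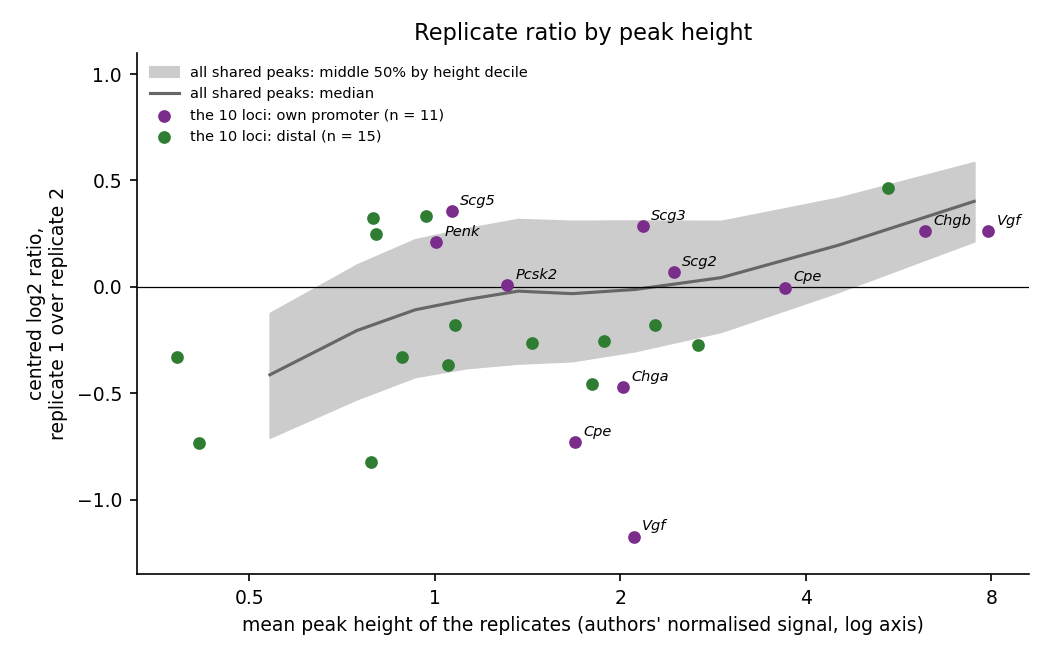
Centred log2 ratio of replicate 1 over replicate 2 against the mean height of the replicates (log axis) for the shared peaks of the 10 loci, with the median and middle 50% of all shared peaks by height decile. Chga, the inner Cpe peak and the upstream Vgf peak lie below the grey band, and most distal peaks lie below 0.

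The wider machinery of peptide secretion was described by 3 further lists. They are set beside all genes only, and were not compared with genes of like CpG content. Of 17 other genes of protein processing, 14 had a shared promoter peak, against 63.6% of all genes, their heights having medians of 6.51 in replicate 1 and 3.54 in replicate 2, against 5.95 and 3.10 for all genes with such a peak. The highest were Mbtps1, which encodes the site-1 protease (12.4 and 5.62), and Cpd, which encodes carboxypeptidase D (9.88 and 3.89). Pcsk4 (10.7 and 4.20) shared its peak with a start of Reep6. Ctsl, which encodes cathepsin L, had 8.36 and 4.35, and Pcsk1n, which encodes the PC1/3 inhibitor proSAAS, had no promoter peak in either replicate. The 4 highest were thus above Cpe, Pcsk2 and Pcsk1 in both replicates.

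Of 26 peptide hormone and neuropeptide genes, 14 (53.8%) had a shared promoter peak, below the 63.6% of all genes. Their median heights were 1.30 in replicate 1 and 0.995 in replicate 2, against the 5.95 and 3.10 of all genes. Nucb2, the gene of the nesfatin precursor, led with 12.2 and 4.57. Adm, which encodes adrenomedullin, followed with 3.33 and 2.03, Nppc, which encodes C-type natriuretic peptide, with 2.91 and 1.65, and Crh with 2.68 and 1.74. No peak was called in either replicate for 8 genes, among them Pdyn, Avp, Tac1 and Nts.

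Of 30 genes of the granule membrane and granule formation, 29 had a shared promoter peak, against 63.6% of all genes. Their median heights of 4.46 in replicate 1 and 2.37 in replicate 2 were below the 5.95 and 3.10 of all genes. Slc18a1, the vesicular monoamine transporter 1 gene, had 13.7 in replicate 1 and 6.85 in replicate 2 and shared its peak with a start of Atp6v1b2. Atp6v0d1, a proton pump subunit gene, had 13.7 and 5.09 and shared its peak with a start of Gm38250. Arfip1 had 12.4 and 6.23, and Ccdc186 had 10.2 and 5.13. The exception was Slc18a2, the vesicular monoamine transporter 2 gene, with a peak of 0.527 in replicate 2 only.

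Among markers of cell types, shared promoter peaks were found for 5 of 12 chromaffin genes (41.7%), 7 of 11 genes of steroid-making cortex (63.6%), 3 of 5 Schwann cell genes (60%) and 3 of 11 genes of pituitary and pancreatic endocrine cells (27.3%), beside 63.6% of all genes. The chromaffin genes with a shared peak were Slc18a1, Gata3 (7.08 in replicate 1 and 3.18 in replicate 2), Phox2a (1.72 and 1.49), Dbh (1.12 and 0.570) and Chrna3 (0.735 and 0.607). Th, which encodes tyrosine hydroxylase, had 0.809 in replicate 1 only, and Pnmt, which makes adrenaline, had no promoter peak in either replicate. In the cortex list, heights of shared peaks ran from 1.51 and 0.812 at Cyp11b1 to 8.16 and 4.91 at Scarb1, with 3.58 and 1.28 at Star. Cyp21a1 and Mc2r had a peak in replicate 1 only, and Hsd3b1 and Cyp11b2 had none. The part of cell composition in the members' heights was not tested. In all, replicate 1 had 98813 peaks in the stricter list and 339116 footprints, and replicate 2 had 55135 and 241536.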

How the data were processed

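DNase-seq of 2 samples, which the labels number as biological replicates 1 and 2, was analysed from the deposited peak, footprint and FDR lists. Peak height is the authors' normalised signal, with 1 deposited value per peak. Per sample, 100% of heights were whole multiples of a step within 5% of it (0.00668 in replicate 1 and 0.00620 in replicate 2). Reading a step as 1 tag is an inference, so the read depth is unknown and intervals cover counting error only. The deposited FDR lists give adjusted p-values for stretches under 0.05, and every peak of the shorter list held a base at 0.001 or less. The deposited footprint lists carry 1 constant p-value, 0.01. Build mm10 is named per the labels, with the aligner and callers not given in the sources used here. Reads of CAST/EiJ alleles placed on mm10 can lower signal where the strains differ.

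The shorter list was the main one, as in earlier work on these data, and the longer one an alternative. Regions were merged peaks of both replicates, shared where they overlapped by at least 1 bp, with the highest height of each replicate. Promoters reached 1 kb to either side of every annotated start of a gene. Motifs were matched on both strands within 1 kb of the start with the highest promoter peak, taking starts of protein-coding transcripts first, and percentiles rank promoters with a peak in that replicate. Sequence came from the RefSeq GRCm38 assembly, and 0 peaks or footprints ended beyond its chromosomes. REST and CTCF matches used consensus letters, with up to 3 mismatches for REST. Python 3.11.15, numpy 2.4.6, pandas 2.3.3, pysam 0.24.0 and samtools 1.23.1 were used, and the overlap and ratio steps were tested on simulated data. The members and lists were chosen with earlier results of these data known. All members, their promoter peaks and highest shared distal peaks were named, and from each list up to 4 genes with the highest shared promoter peak and up to 4 with no peak. At most 8 sequences with a REST or CRE match or the longest common footprint were printed. The CTCF search, the count of REST matches in the loci and over the genome and the comparison by CpG ratio were added once values had been seen. Named marker genes outside the rule (those of the chromaffin and cortex lists, and Slc18a2) were chosen after their values were seen. One item of the gene lists is not reported here by name.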

Additional observations from a re-analysis of the deposited data

How the results depend on the processing

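The counts of members with a shared promoter peak, of members with footprints there in both replicates and of REST matches in shared peaks stayed within 1.5 times of the reported value under every alternative tried, apart from REST matches with up to 1 mismatch (3 against 5). Leaving out replicate 1 or replicate 2 gave 10 members with a promoter peak, 5 REST matches and 17 to 46 distal peaks, and 46 is the count of replicate 1 on its own. Shared distal peaks numbered 31 in the longer list, 34 with flanks of 100 kb and 6 among the 50% highest peaks, against 15. Members with a shared promoter peak numbered 6 among the 50% highest peaks, against 9, which is at the limit of 1.5 times. Without centring, the median log2 ratio was 0.94 at promoters, against 0.21, and 0.47 at distal peaks, against -0.27. That is the genome-wide shift of 0.73 put back. Centred by height decile, the medians were 0.03 at promoters and -0.22 at distal peaks. The longer list gave -0.08 at distal peaks, and the mean of all shared peaks of a promoter gave 0.07. Members with a CRE-type match numbered 4 with the full palindrome only and 2 inside footprints of both replicates, against 10. With a promoter window of 2 kb, the upstream Penk peak became its highest (3.10 in replicate 1 and 2.25 in replicate 2), and the other 56 alternative heights moved by less than the spread between replicates. With a window of 500 bp Pcsk1 had no promoter peak in either replicate. No paired analysis was possible because both samples belong to 1 group. With 2 replicates and no stated depth, the absence of a low peak cannot be told from a missed one.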
